A study of Homo sapiens with 8 samples.

Results

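TRAIL, the death ligand encoded by TNFSF10, was followed with its receptors and the first steps of the signal they pass on, through 10 genes: the ligand TNFSF10, the death receptors TNFRSF10A and TNFRSF10B, the decoy receptors TNFRSF10C, TNFRSF10D and TNFRSF11B, the caspase CASP8, the adaptor FADD, the caspase inhibitor CFLAR and the mitochondrial link BID. The genes were chosen by name as 1 pathway after the difference in TNFSF10 between LM2 and MDA-MB-231 cells had been seen in the same Illumina values. In that comparison the 10 genes are therefore described by their values, with no p-value of their own, and counts from the fit over all genes are given for them as a description only. All 10 genes had probes on both platforms, 17 of 48803 probes on the Illumina arrays and 39 of 54613 probe sets on the Affymetrix arrays, controls left out. Another 2 Affymetrix probe sets of TNFRSF10C were listed with a second gene and were not used.

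Total RNA was profiled on 8 arrays, 2 for each of 4 groups, from human breast cancer cells that were all kept in DMEM medium with 10% serum. MDA-MB-231, a line labelled as poorly metastatic, and LM2, a line labelled as highly metastatic and known as a lung-metastatic derivative of it, were measured on Illumina bead arrays. LM2 control cells and LM2 cells in which the microRNA miR-126 was over-expressed were measured on Affymetrix arrays. The labels neither describe the control cells further nor name a vector, and nothing in them tells if the arrays called A and B of each group hold separate cultures. A p-value therefore rests on no more than the spread between arrays of a group, in part shared across genes, and that spread may be technical. No sample was run on both platforms, and values were compared within a platform only.

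TRAIL is a membrane protein of the tumour necrosis factor family that can be shed, and it kills many transformed cells while sparing most normal ones. When it clusters TNFRSF10A (DR4) or TNFRSF10B (DR5), their intracellular death domains recruit FADD, FADD recruits pro-caspase-8, and caspase-8 cuts executioner caspases and BID, whose cut form opens mitochondria. CFLAR (c-FLIP) resembles caspase-8 without its catalytic activity and blocks its activation, TNFRSF10C and TNFRSF10D bind the ligand without passing on a full death signal, and TNFRSF11B (osteoprotegerin) is a soluble receptor that binds TRAIL and the bone factor RANKL. Interferons are well known inducers of TNFSF10 in many cell types.

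The sequences shown are the start region of the ligand gene and the microRNA put into the LM2 cells. The TNFSF10 promoter is shown because its window holds matches to an interferon motif. Of 13 interferon-induced genes above the filter, 4 were called lower in LM2, as were 1.47% of all genes tested. Whether the motif has a part in the TNFSF10 difference was not tested. It is given 5′ to 3′ from RefSeq on GRCh38.p14, chr3:172523381-172523680, minus strand, with 250 bases before the start of transcription and 50 from it. Capitals mark 2 matches to the core of the interferon-stimulated response element, read on the opposite strand, and 1 TATA box.
TNFSF10: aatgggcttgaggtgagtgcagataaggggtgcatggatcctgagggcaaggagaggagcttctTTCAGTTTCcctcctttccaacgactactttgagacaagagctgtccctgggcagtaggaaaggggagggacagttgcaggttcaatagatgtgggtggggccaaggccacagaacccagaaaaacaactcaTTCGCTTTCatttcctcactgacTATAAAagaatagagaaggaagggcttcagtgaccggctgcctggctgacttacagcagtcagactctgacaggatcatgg
The first of the 2 matches lies 186 to 178 bases before the start, the second 54 to 46 bases, and the TATA box 31 to 26 bases. The mature forms of miR-126 are shown with bases 2 to 8, the seed that pairs with target messages, in capitals (RefSeq, GRCh38.p14, chr9:136670653-136670674 and chr9:136670616-136670636, plus strand).
hsa-miR-126-3p: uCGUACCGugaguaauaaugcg
hsa-miR-126-5p: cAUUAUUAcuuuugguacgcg
The seeds differ, and neither form was measured on these arrays, so the level of miR-126 in the cells was not checked here.

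The core GAAANNGAA was searched on both strands of 35116 RefSeq promoters of the same length, of which 8.107% held at least 1 match and 0.701% at least 2. Promoters were listed for 5 of the 10 genes (14 promoters of TNFSF10, CASP8, FADD, CFLAR and BID), and 3 of these genes held the core in at least 1 promoter. CFLAR held 1 match, 111 to 103 bases before a start, and CASP8 held 1 match that spans a start. Of the 13 interferon-induced genes with a listed promoter, 12 held the core in at least 1 promoter. A gene can have several listed promoters, so these counts of genes cannot be set directly against the share of promoters. The other motifs searched were TTCNNNGAA (the gamma-interferon activation site, in 7.657% of promoters), GGGCGG (a GC box, 44.954%), GTAAACA (a forkhead site, 3.423%), TATAAA (11.53%), CCAAT (34.614%) and TGAGTCA (an AP-1 site, 4.949%). None of these except TATAAA was in the TNFSF10 window, where no matches overlapped. Of the 5 genes with listed promoters, 4 held a GC box, 2 held TATAAA and 0 held the forkhead site. TTCNNNGAA, CCAAT and TGAGTCA were each held by 1 of the 5. Each match is a string of letters and not a measured binding site.

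Most listed marks of a mesenchymal breast line were high in these cells. Vimentin, CD44, AXL, CAV1 and MSN lay far above the median probe on every array, with vimentin at 25568 to 35650 intensity units on the Illumina arrays, where the upper quartile of all probes was at 126 to 131. The hormone receptor genes ESR1 and PGR and the blood marker PTPRC lay below the median probe on the Illumina arrays, and PGR and PTPRC also on the Affymetrix arrays. ZEB1, also listed as mesenchymal, was dimmer, at 143 to 184 on the Illumina arrays. The epithelial genes EPCAM and KRT19 were present, and CD14 and CD68, listed as blood markers, were above the filter on the Illumina arrays. So were GATA3, listed as luminal, at 161.0 and 161.5 in MDA-MB-231 and 113 and 99.1 in LM2, the endothelial PECAM1 and the fibroblast genes DCN and LUM. Of the 6 luminal and hormone receptor genes, 3 were above the filter on the Illumina and 4 on the Affymetrix arrays. The 2 miR-126 arrays stood apart from each other: over 12923 genes they differed by a mean of 0.284 on the log2 scale, against 0.0871 for the control arrays. For the 10 genes both miR-126 values are therefore read one by one, and not through their mean alone. These readings use the quantile-normalised scale, and for some probe sets the order of the arrays differs in the deposited values.

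In LM2 cells the ligand TNFSF10 was lower than in MDA-MB-231 cells. Its single Illumina probe read 1309.6 and 808 intensity units in MDA-MB-231 (array A, then B), and 243 and 104 in LM2 (again A, then B). Both LM2 arrays lay below both MDA-MB-231 arrays, and the groups did not overlap. On the scale of log2(intensity + 16) the means were 10.03 ± 0.48 (SD, n = 2) in MDA-MB-231 and 7.46 ± 0.79 (SD, n = 2) in LM2, a difference of -2.57 (SE 0.34), or 5.93-fold lower in LM2. Here and below, each SE is that of the limma fit, which shares variance across genes. It is not the spread of a gene's own arrays alone. In whole RNA from a culture, fewer cells that express a gene and less RNA per cell cannot be told apart. The LM2 array B value lies near the median of all probes, where background was not fully subtracted, and after subtraction of each array's lowest value the difference was -2.99.

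The LM2 arrays themselves differed in TNFSF10 by 2.17-fold on the same scale, higher on array A. Of 12490 genes tested, 17 (0.136%), TNFSF10 included, differed at least as much between these 2 arrays.

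**Figure D1:**
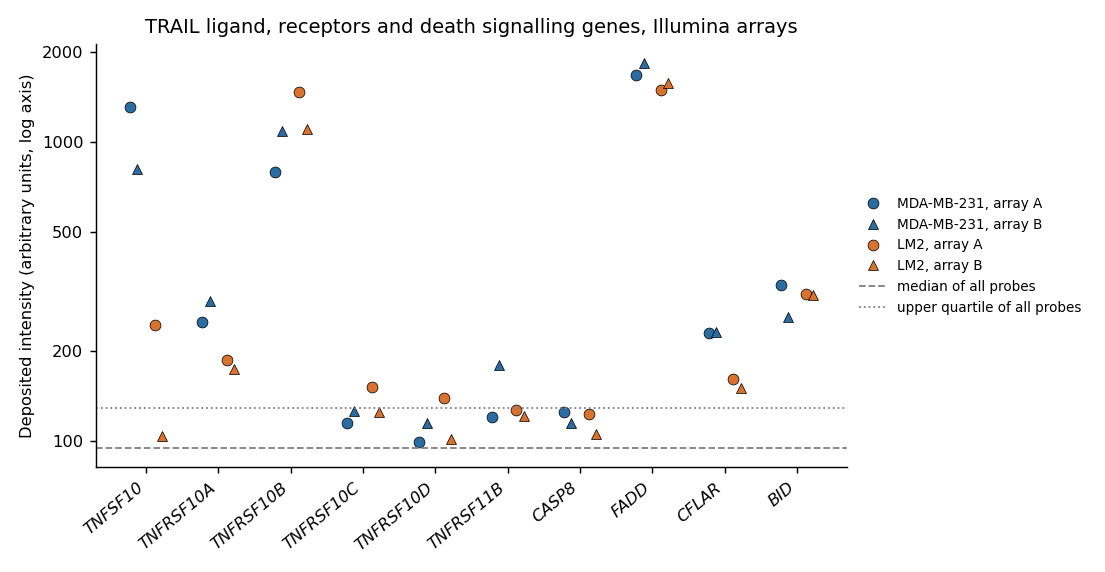
Deposited intensity (log axis, arbitrary units) of the 10 genes on each of the 4 Illumina arrays, with circles for array A and triangles for array B, blue for MDA-MB-231 and orange for LM2, and lines at the median and upper quartile of all probes. TNFSF10 reads 1309.6 and 808 in MDA-MB-231 against 243 and 104 in LM2, while TNFRSF10C, TNFRSF10D, TNFRSF11B and CASP8 lie near the lines on most arrays.

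All 10 genes lay above the filter (a mean intensity higher than that of the median probe). The limma fit over all 12490 genes called 0.841% of them higher in LM2 and 1.47% lower (adjusted p under 0.05), and 14.4% had an unadjusted p under 0.05. Of the 10 genes it called 0 higher and 1 lower, TNFSF10, the gene whose difference on these arrays had led to the choice of the set, so the count is no test and nothing is read from it. With a variance prior that has no trend, 0 of the 10 genes were called lower. Quantile normalization changed the counts over all genes from 105 higher and 184 lower to 131 and 131. The values of the 2 groups did not overlap for 5 of the 10 genes, TNFRSF10B higher and TNFSF10, TNFRSF10A, FADD and CFLAR lower in LM2, where 44% of all genes tested did not overlap. The median difference over the 10 genes was -0.13 on the log2 scale, against -0.04 over all genes tested.

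The death receptors lay on opposite sides of zero. TNFRSF10A read 249.5 and 294 in MDA-MB-231 and 186 and 174 in LM2, a log2 difference of -0.55 (SE 0.18), with both LM2 arrays below both MDA-MB-231 arrays. The brightest probe of TNFRSF10B read 789 and 1083 in MDA-MB-231 and 1461 and 1099 in LM2, a log2 difference of 0.45 (SE 0.25), and LM2 array B exceeded MDA-MB-231 array B by little. The other 2 probes of TNFRSF10B, both dim at 121 to 165 units, gave log2 differences of 0.22 and -0.03, so its probes did not share a direction.

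The decoy receptors were dim and their groups overlapped. TNFRSF10C read 114 and 125 in MDA-MB-231 and 151 and 124 in LM2. TNFRSF10D read 98.8 and 115 in MDA-MB-231 and 139 and 100.9 in LM2. For both genes the highest of the 4 values was LM2 array A. TNFRSF11B read 119.8 and 179.6 in MDA-MB-231 and 126 and 121 in LM2, so that its highest value was MDA-MB-231 array B. The log2 differences of the 3 genes were 0.17 (SE 0.14), 0.14 (SE 0.14) and -0.22 (SE 0.17), each under 1.5 times its limma SE.

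Inside the cell, CFLAR had close replicates in both groups. It read 228 and 231 in MDA-MB-231 and 161 and 150.0 in LM2, a log2 difference of -0.52 (SE 0.16), and the groups did not overlap. FADD read 1666 and 1830.1 in MDA-MB-231 and 1491 and 1567 in LM2, a log2 difference of -0.19 (SE 0.22), less than its SE although the groups were separate. BID read 331 and 259 in MDA-MB-231 and 308 and 307 in LM2, so both LM2 arrays lay between the MDA-MB-231 arrays.

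CASP8 was read by 4 Illumina probes, all between 70.2 and 125 units on every array. Their log2 differences ran from -0.10 to 0.04, and each overlapped between the groups. These probes lay around the median of all probes, where the deposited values say little about a level, and no detection calls were used here. The 3 probes of BID gave log2 differences from -0.32 to 0.12, the lowest from a probe below the filter.

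The genes whose Illumina profile was most like that of TNFSF10, by Euclidean distance between mean-centred log2 values over the 4 arrays, were IFI27 (distance 0.30), PLAAT4 (0.42), HCP5 (0.50), CAV2 (0.87) and PDE7B (0.95). IFI27, an interferon-induced mitochondrial and endoplasmic protein, read 3186 and 2148 in MDA-MB-231 and 699 and 367 in LM2. PLAAT4, a phospholipid acyltransferase, read 4882 and 3469 in MDA-MB-231 and 796 and 531 in LM2. In all 5 genes, as in TNFSF10, array A was the higher array of each group, an order that picking genes by likeness favours. HCP5, a non-coding RNA of the MHC class I region, read 1852 and 950.4 in MDA-MB-231 and 285 and 197 in LM2. CAV2, a caveolin, and PDE7B, a cyclic AMP phosphodiesterase, had LM2 arrays nearly level with each other, at 1007 and 836 and at 161 and 159. The likeness was measured on the same 4 arrays that chose TNFSF10. Of these 5 genes, 4 had a listed promoter, and 1 of the 4, IFI27, held the interferon core.

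Of 7 lists of neighbouring genes, only the interferon-induced genes had calls in LM2 against MDA-MB-231. The lists were chosen with earlier results of these data known, so the calls are a description and no test of a list. Of 16 listed, 13 were above the filter, 0 were called higher and 4 lower, where 0.841% and 1.47% of all genes tested were called. IFI27 fell by 2.33 on the log2 scale (limma adjusted p = 0.0035). IFIT1, whose product binds foreign RNA ends, fell by 1.42 (limma adjusted p = 0.0069), IFIT2, of the same family, by 1.12 (limma adjusted p = 0.037), and MX1, an antiviral GTPase, by 1.10 (limma adjusted p = 0.027). In these 4 genes both LM2 arrays were below both MDA-MB-231 arrays. The other 9 were not called, ran up to a difference of 0.55 for IFI44, and the list's median was -0.49, against -0.04 over all genes.

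Among 14 transcription factors known to act on TNFSF10 or TNFRSF10B and above the filter, 0 were called in either direction, and 2 had an unadjusted limma p under 0.05, against 14.4% of all genes tested. IRF1, an interferon-induced activator, read 1229 and 871 in MDA-MB-231 and 1036 and 699.7 in LM2, and its groups overlapped. DDIT3, a stress-induced factor that acts on TNFRSF10B, gave the largest difference, 1.05 (limma adjusted p = 0.128), with both LM2 arrays higher. EGR1, an immediate early gene, split by array letter rather than by cell: it read 4213 and 248 in MDA-MB-231 and 5524 and 717 in LM2.

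Among genes above the filter, the other lists of the death pathway held 0 calls in LM2 against MDA-MB-231. An unadjusted limma p under 0.05 was found for 3 of 13, 2 of 11, 3 of 9 and 0 of 7 genes, against 14.4% of all genes tested. Listed genes below the filter, or without a usable probe, were not tested. Of 13 other death receptors, ligands and adaptors, the largest differences were -0.74 for TNFSF12, the ligand TWEAK (limma adjusted p = 0.083), and 0.59 for TNFRSF1A, the tumour necrosis factor receptor (limma adjusted p = 0.279). Of 11 caspases and inhibitor of apoptosis proteins, they were -0.49 for CASP6 and -0.48 for HTRA2, and the list's median was -0.25. Of 9 BCL2 family genes, they were -0.81 for PMAIP1 (NOXA; limma adjusted p = 0.085) and -0.66 for BOK, both pro-apoptotic. Of 7 genes of receptor glycosylation and trafficking, all lay between -0.29 and 0.12, with SRP72 at -0.29 and CBL at -0.27. Neither partner of osteoprotegerin was above the filter.

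In LM2 cells over-expressing miR-126, the ligand TNFSF10 had no common direction. Its probe set 202688_at read 1.28 and 1.38 times the array median in control arrays A and B, and 0.625 and 3.21 in miR-126 arrays A and B. Array A lay below both controls and array B above both, 5.14-fold apart. The same order held in the other 2 sets, 214329_x_at at 0.884 and 0.996 in control and 0.605 and 3.24 in miR-126, and 202687_s_at at 0.835 and 1.01 in control and 0.635 and 2.26 in miR-126.

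Averaged over the 2 arrays, TNFSF10 differed from control by 0.09 on the log2 scale (SE 0.75, 95% interval -1.84 to 2.02, limma adjusted p = 0.987). That interval reaches far to both sides of 0, so it does not show that the level was the same. Array A alone differed from the control mean by -1.09 and array B alone by 1.27. Of 12923 genes tested, 3 (0.0232%), TNFSF10 included, differed at least as much between the miR-126 arrays. Whether TNFSF10 is higher or lower with miR-126 thus depends on which array is read.

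**Figure D2:**
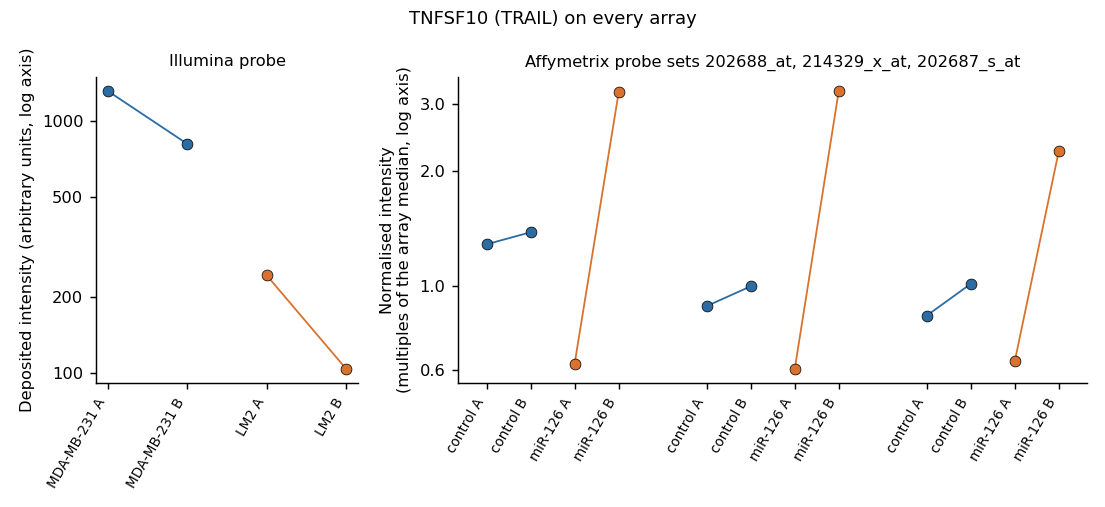
TNFSF10 on every array, with the deposited Illumina intensity (left) and the normalised Affymetrix intensity of 3 probe sets (right) on log axes, and lines joining arrays A and B of a group. The LM2 values lie below both MDA-MB-231 values, while in each probe set miR-126 array A lies below and array B above the control arrays.

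Of the 10 genes, 8 were above the filter on the Affymetrix arrays, TNFRSF10C and TNFRSF11B being below it. By limma 0 of the 8 were higher and 0 lower, with adjusted p from 0.6503 to 0.987, and 0 had an unadjusted p under 0.05. Over all 12923 genes tested, 0% were called higher and 0% lower, and 7.81% had an unadjusted p under 0.05. On the normalised scale the groups did not overlap for 1 of the 8 genes, CASP8, against 40.4% of all genes tested. The median difference over the 8 genes was 0.05, against 0.02 over all genes.

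**Figure D3:**
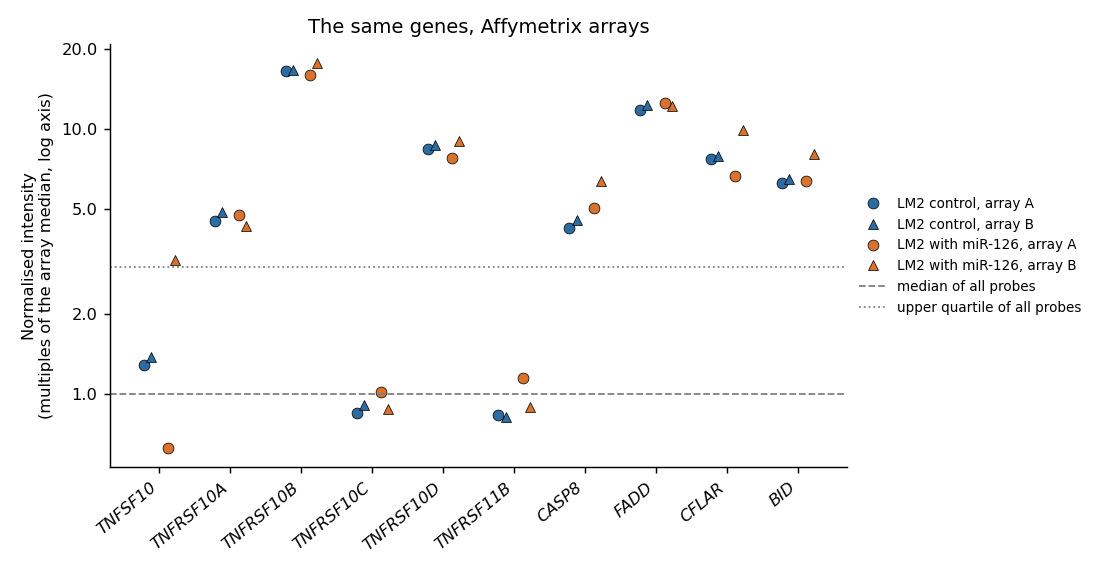
Quantile-normalised Affymetrix intensity (log axis, multiples of the array median) of the probe set that stands for each of the 10 genes, with circles for array A and triangles for array B, blue for LM2 control and orange for LM2 with miR-126. TNFSF10 spreads from 0.625 to 3.21 across the miR-126 arrays, while FADD and TNFRSF10B stay within a narrow range.

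The death receptors were nearly level on their main probe sets. TNFRSF10A, by 231775_at, read 4.48 and 4.85 in control and 4.72 and 4.30 in miR-126, a log2 difference of -0.05 (SE 0.13), and its 3 sets all lay between -0.08 and -0.05. TNFRSF10B, by 209295_at, read 16.6 and 16.7 in control and 15.99 and 17.7 in miR-126, a difference of 0.02 (95% interval -0.26 to 0.29, limma adjusted p = 0.983). On the normalised scale the controls fell between the miR-126 arrays in TNFRSF10B, and the groups overlapped in TNFRSF10A. The deposited values of 209295_at had the other order, at 16.2 and 17.07 in control and 17.17 and 16.25 in miR-126 arrays A and B.

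Dimmer sets of TNFRSF10B read differently from 209295_at. The sets 210405_x_at and 209294_x_at each gave a log2 difference of -0.41 (SE 0.22 and 0.17), with control at 5.45 and 7.04 and miR-126 at 3.96 and 5.52 on the first. On the second, 5.20 and 6.36 in control stood against 3.96 and 4.76 in miR-126, and the groups did not overlap. The suffix x_at marks sets whose probes can bind more than 1 transcript. That limit also applies to 214329_x_at of TNFSF10 and to several CFLAR sets, 209939_x_at among them. The lowest limma adjusted p of a TNFRSF10B set was 0.640 in the fit over every probe set, so none of the differences passed.

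Of the decoy receptors on the Affymetrix arrays, TNFRSF10C and TNFRSF11B lay below the filter. The 4 sets of TNFRSF10C gave log2 differences of 0.07 to 0.10, the 2 sets of TNFRSF11B of 0.29 and 0.39, and these were not tested. In TNFRSF11B, by 204933_s_at, control read 0.830 and 0.820 and miR-126 1.14 and 0.892, with both miR-126 arrays above both controls. TNFRSF10D, by 227345_at, read 8.42 and 8.67 in control and 7.77 and 9.03 in miR-126, a difference of -0.03 (SE 0.13). Its dimmer set 210654_at read 2.20 and 2.82 in control and 2.01 and 2.70 in miR-126, a difference of -0.10 (SE 0.21). The groups overlapped on both TNFRSF10D sets. In the deposited values of 227345_at the miR-126 arrays had the other order, at 8.354 on A and 8.209 on B.

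CASP8 was the only one of the 8 genes whose groups did not overlap on the normalised scale. By 213373_s_at it read 4.22 and 4.53 in control and 5.05 and 6.36 in miR-126, a log2 difference of 0.37 (SE 0.16, 95% interval -0.04 to 0.79, limma adjusted p = 0.6503). Both miR-126 arrays lay above both controls, but the difference did not pass, and 207686_s_at gave -0.08 with groups that overlapped. FADD read 11.8 and 12.3 in control and 12.5 and 12.2 in miR-126, a difference of 0.04 (SE 0.11). Its 4 values lay close together, with both miR-126 values near the higher control. In the deposited values miR-126 array A read 13.51 and array B 11.14, outside the controls at 11.59 and 12.6.

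BID gave positive differences on all 3 of its sets, from 0.17 to 0.27. By 211725_s_at it read 6.23 and 6.47 in control and 6.38 and 8.06 in miR-126. On this normalised scale array B alone carried the difference, since array A lay between the controls on all 3 sets. On 204493_at, array A read 4.22 against 4.21 and 4.45 in control, and array B 5.65. The deposited values differed, with array A above both controls on 211725_s_at (6.861 against 6.151 and 6.647) and 227143_s_at (6.777 against 6.303 and 6.024). On 204493_at it stayed between them (4.497 against 4.162 and 4.565). None of the BID sets passed, with a lowest limma adjusted p of 0.762.

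CFLAR was read by 14 probe sets, whose differences did not share a direction. By the set with the highest mean, 209939_x_at, it read 7.68 and 7.91 in control and 6.62 and 9.94 in miR-126, a difference of 0.06 (SE 0.22), with array A below and array B above the controls, as in TNFSF10. On the normalised scale array B was higher than array A on 13 of the 14 sets. For 237367_x_at that order turned in the deposited values, at 2.284 on array A and 2.116 on array B. In all, 11 sets gave a negative and 3 a positive difference, from -0.83 to 0.06.

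The CFLAR set with the lowest difference was 239629_at, at 1.41 and 1.60 in control and 0.813 and 0.879 in miR-126. Both miR-126 arrays lay well below both controls and close to each other, a difference of -0.83 (SE 0.11, 95% interval -1.12 to -0.54). Its unadjusted p was 0.00073, and the limma adjusted p over 23065 probe sets was 0.460, so it did not pass. Of the 28 sets of the 10 genes above the filter it was the only one with an unadjusted p under 0.05, where 8.07% of all sets had one. The groups did not overlap on 5 of the 28, against 39.9% of all sets. CFLAR is spliced into long and short forms, and the sources used here do not say which forms each set reads.

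**Figure D4:**
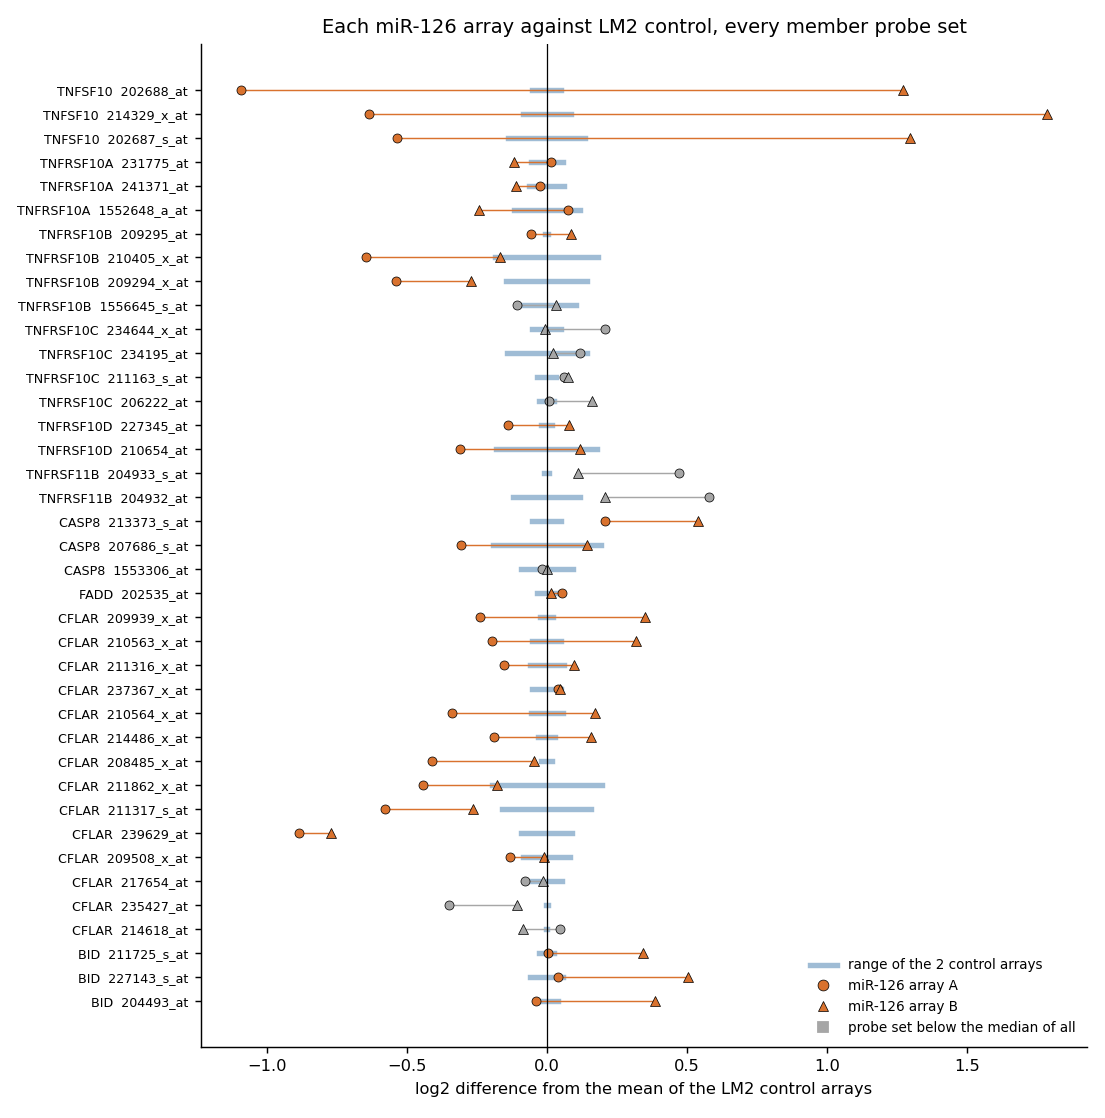
Difference of each miR-126 array from the mean of the control arrays (log2) for the 39 probe sets of the 10 genes, with circles for array A, triangles for array B, blue bars for the span of the control arrays, and grey for sets below the filter. The 3 TNFSF10 sets reach from -1.09 to 1.79, and CFLAR 239629_at has both arrays near -0.83.

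Among listed genes above the filter, none of the 7 lists held a call with miR-126. In each list 0 to 2 genes had an unadjusted limma p under 0.05, against 7.81% of all genes tested. Listed genes below the filter, or without a usable probe set, were not tested. Usable sets covered 16 of 19 other death receptors, ligands and adaptors, and 12 of 15 caspases and inhibitor of apoptosis proteins. They covered 14 of 15 BCL2 family genes and 14 of 17 transcription factors. Of 11 interferon-induced genes, the largest differences were -0.66 for IFI27 (limma adjusted p = 0.6503) and 0.37 for ISG15, a ubiquitin-like protein (limma adjusted p = 0.489), and the list's median was -0.02. IFI27 read 1.89 and 2.02 in control and 0.918 and 1.65 in miR-126, so unlike TNFSF10 both its miR-126 arrays lay below both controls. Of the other interferon genes called in LM2, IFIT1 differed by 0.01 here, at 4.81 and 5.20 in control and 4.86 and 5.20 in miR-126. IFIT2 differed by -0.02 and MX1 by -0.03 on average, but both split, with array A below and array B above the controls: IFIT2 read 6.46 and 6.76 in control and 5.53 and 7.69 in miR-126, and MX1 1.74 and 1.85 in control and 1.61 and 1.92 in miR-126.

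Of 13 transcription factors above the filter, EGR1 had the largest positive difference, 1.15 (limma adjusted p = 0.749), carried by 1 array: 7.80 and 9.39 in control and 7.94 and 45.3 in miR-126. DDIT3 read 12.03 and 12.4 in control and 5.85 and 5.22 in miR-126, a difference of -1.14 (limma adjusted p = 0.463). DDIT3 had close replicates in both groups and lay lower with miR-126, but like every gene it did not pass. Of 12 other death receptors, ligands and adaptors, DAXX gave -0.25 and TNFRSF1A -0.22, each with both miR-126 arrays below both controls.

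Of 11 caspases and inhibitor of apoptosis proteins, BIRC2 (cIAP1, a ubiquitin ligase) read 40.3 and 38.9 in control and 57.3 and 48.9 in miR-126, a difference of 0.42 (limma adjusted p = 0.484), and BIRC6 gave 0.30, with both miR-126 arrays above both controls. Of 13 BCL2 family genes, the anti-apoptotic BCL2L1 read 33.3 and 31.9 in control and 25.1 and 20.8 in miR-126, a difference of -0.51 (limma adjusted p = 0.484), and the pro-apoptotic BAX gave -0.47, at 1.89 and 2.29 in control and 1.20 and 1.89 in miR-126. In BIRC2 and BCL2L1 the groups were separate, as in 40.4% of all genes. Of 7 genes of receptor glycosylation and trafficking, GALNT14, an enzyme that adds sugars to the TRAIL receptors, gave 0.49 (limma adjusted p = 0.574), with both miR-126 arrays higher, and MARCHF8 -0.16, with both lower. TNFRSF11A, the RANK receptor, gave 0.31 from 1 array: it read 1.58 and 1.36 in control and 2.46 and 1.34 in miR-126.

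**Figure D5:**
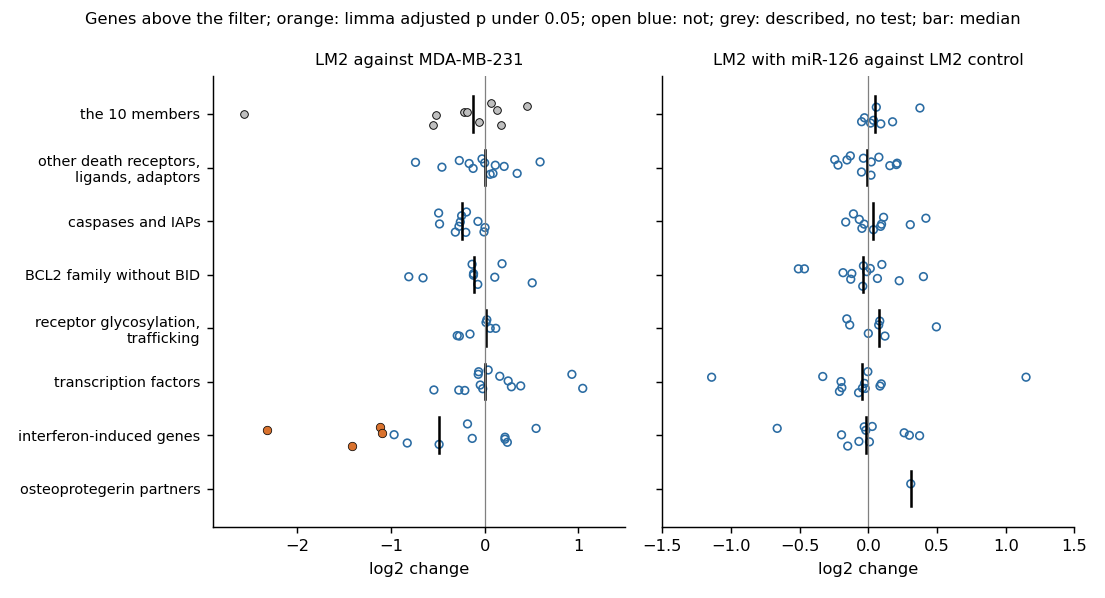
Log2 differences of the genes above the filter in the 10-gene set and the 7 lists, 1 point a gene and a bar at the median, for LM2 against MDA-MB-231 (left) and LM2 with miR-126 against control (right). Orange points, an adjusted p under 0.05 by limma, appear for 4 interferon-induced genes in LM2 against MDA-MB-231 and nowhere on the right.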

How the data were processed

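The authors deposited 1 table of linear intensity values per platform; how they were normalised, and with what software, is not given in the sources used here. Illumina intensities had a median of 94.39 on each array and the Affymetrix intensities a median of 1. Samples were grouped by their titles. Illumina values were used on the deposited scale as log2(value + 16), which understates changes of dim genes, and Affymetrix values as log2 after quantile normalization. The probe with the highest mean stood for a gene, probes with no or several gene symbols were left out, and genes brighter on average than the median probe entered the test (12490 and 12923). The 2 groups of a table were compared by limma 3.58.1 (R 4.3.3; lmFit and trended eBayes), two-sided, at a Benjamini-Hochberg adjusted p of 0.05, and the other probe sets were fitted over all probe sets above the same filter. With 2 arrays a group, an exact permutation test goes no lower than p = 0.333. The steps were tested on simulated data. Scaling, pseudocount, probe rule, filter, variance prior, the array letter as a block and each array left out were varied. The 10 genes, the lists and the tests were chosen with earlier results of these data known. Named from the lists were up to 4 genes past the threshold, or else the 2 with the largest difference, and IRF1 was chosen after its values were seen. The number of arrays limits the precision. Plots used matplotlib 3.10.9 (Python 3.11.15).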

Additional observations from a re-analysis of the deposited data

How the results depend on the processing

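In LM2 against MDA-MB-231, where the counts of the 10 genes are a description because TNFSF10 was picked there, a variance prior without a trend called 0 lower in place of 1; over all genes that prior called 41 higher and 66 lower. Each array left out in turn gave 0 to 0 higher and 1 to 1 lower of the 10 genes, while the counts over all genes were 294 higher and 397 lower when MDA-MB-231 array B was left out, 46 and 40 for LM2 array A, 76 and 40 for LM2 array B, and 66 and 118 when the probes of a gene were averaged. After the lowest value of each array was subtracted, an alternative chosen after seeing the data, TNFSF10 stood at -2.99, TNFRSF10A at -0.68 and CFLAR at -0.67. With 1 array left out, differences of both signs were also seen there for TNFRSF11B (-0.49 to 0.04), TNFRSF10D (-0.067 to 0.34), BID (-0.10 to 0.24) and CASP8 (-0.16 to 0.032), and TNFRSF10B ran from 0.22 to 0.67, with 0.21 when its probes were averaged. BID stood at -0.044 with its probes averaged. With miR-126, leaving out 1 array gave 0 to 4 higher and 0 to 2 lower of the 10 genes, the lone array being assumed to vary like the control. Without miR-126 array A, TNFSF10 (1.27), CASP8 (0.54), CFLAR (0.35) and BID (0.34) were called higher, and all genes gave 2299 higher and 2337 lower. Without miR-126 array B, TNFSF10 (-1.09) and CFLAR (-0.24) were called lower, and all genes gave 2558 and 2246. The sign also turned, with no call, for TNFRSF10A without control array B (0.0075) and without miR-126 array B (0.017), its range with 1 array left out being -0.12 to 0.017. It turned for TNFRSF10B without miR-126 array B (-0.057; range -0.057 to 0.088) and with its probes averaged (-0.21), for CFLAR with its probes averaged (-0.15), for TNFRSF10C, which was not tested, without miR-126 array A (-0.0059), and for TNFRSF10D without miR-126 array A (0.079; range -0.14 to 0.079). The cause was not tested. The array letters were not taken to pair samples, since the deviations of same-lettered arrays correlated by 0.128 and 0.0597 over genes and the labels name no shared culture. With the letter as a replicate block the counts of the 10 genes stayed at 0 higher and 1 lower in LM2 and 0 and 0 with miR-126, and all genes gave 209 higher and 411 lower, and 15 and 36. The number of arrays and dim probes near background limit what can be told about CASP8 and the decoy receptors on the Illumina arrays.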

Other observations

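The genes whose Affymetrix profile was most like that of TNFSF10 over the 4 arrays, a search added after its split values had been seen, were NR4A2 (distance 0.12), ITGA1 (0.20), SPAG4 (0.26), GNG2 (0.27) and CPE (0.29). NR4A2, an immediate early nuclear receptor, read 2.23 and 2.27 times the array median in control and 1 and 4.99 in miR-126. ITGA1, a collagen-binding integrin chain, read 3.04 and 2.86 in control and 1.36 and 6.28 in miR-126. In all 5 genes, picked for their likeness to TNFSF10, miR-126 array A lay below both controls and array B above both. None of the 5 is among the genes nearest to TNFSF10 on the Illumina arrays.

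CD14, a surface receptor listed here as a blood cell marker, split the same way, at 1.60 and 1.75 in control and 0.819 and 3.17 in miR-126, while PTPRC, carried by white blood cells, was below the filter with values of 0.246 to 0.297. CD3E, a chain of the T cell receptor complex on the same list, was above the filter, at 2.02 and 1.74 in control and 1.83 and 2.44 in miR-126, so that 2 of the 3 listed blood markers with a probe set were above it. Whether the split of the miR-126 arrays has a technical source was not tested.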
